A study of Mus musculus with 8 samples.

Results

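The genes of prohormone processing and the granins were followed in islet cells through 18 h of cytokine exposure. They are 10 of the 30406 genes counted in all libraries and were chosen by symbol: the prohormone convertases *Pcsk1* and *Pcsk2*, the convertase partners *Pcsk1n* and *Scg5*, the trimming and amidating enzymes *Cpe* and *Pam*, and the granins *Chga*, *Chgb*, *Scg2* and *Scg3*. All 10 passed the low-count filter of every fit. Islets were isolated from male C57BL/6J mice 12 to 16 weeks old, islets of 10 mice were pooled for each replicate, and each pool was divided over 4 conditions, which gives 8 single-cell RNA libraries. Intact islets were left untreated, received the inflammatory cytokines IFN-γ (150 U/mL) and IL-1β (10 U/mL), received both with 2 mM NMMA, or received 2 mM NMMA alone. NMMA (NG-monomethyl-L-arginine) inhibits nitric oxide synthases, so the comparison of cytokines with and without NMMA addresses which differences need nitric oxide. All groups share the culture medium with 5.5 mM glucose, and no group carries a transgene. The 2 replicates are 2 pools, so tests without a block measure the spread between 2 pools of a condition. Tests with the replicate or the library as a block measure the spread that is left once the block is taken out.

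Peptide hormones are made as long precursors that are cut and trimmed inside the secretory granule. PC1/3 (*Pcsk1*) and PC2 (*Pcsk2*) cut after pairs of basic residues, carboxypeptidase E (*Cpe*) removes the basic residues left behind, and peptidylglycine α-amidating monooxygenase (*Pam*) amidates peptides that end in glycine. In β-cells proinsulin is cut by PC1/3 and PC2, whereas α-cells make glucagon from proglucagon mainly with PC2. ProSAAS (*Pcsk1n*) is an inhibitor of PC1/3, and 7B2 (*Scg5*) is a chaperone that PC2 needs to mature. Granins are acidic proteins that are packed with the hormones: chromogranin A (*Chga*), chromogranin B (*Chgb*), secretogranin II (*Scg2*) and secretogranin III (*Scg3*), which helps to sort chromogranin A into granules.

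In GRCm38 the convertase genes lie at chr13:75089826-75134861 (*Pcsk1*, + strand) and chr2:143546156-143816285 (*Pcsk2*, + strand). Their partners lie at chrX:7919822-7924410 (*Pcsk1n*, +) and chr2:113776362-113829121 (*Scg5*, −), and the enzymes at chr8:64592542-64693054 (*Cpe*, −) and chr1:97795114-98095646 (*Pam*, −). The granin genes lie at chr12:102554969-102565028 (*Chga*, +), chr2:132781278-132795079 (*Chgb*, +), chr1:79434669-79440120 (*Scg2*, −) and chr9:75643189-75684056 (*Scg3*, −). All are annotated as protein coding in GENCODE M21. Small genes on the same strand overlap *Pam* (Gm37140, Gm3531 and B230216N24Rik), and reads that fall in them cannot be told apart by position alone.

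Promoter sequences were searched for binding motifs of factors known to act on such genes. RefSeq promoter windows (GRCm38.p6, 250 bases before to 50 after the start of a gene) were found for 9 of the 10 members, all but *Cpe*. The cAMP response element TGACGTCA, which reads the same on both strands, was in the windows of 3 of the 9 members and in 1.79% of all 32851 windows. It lay 78 bases before the start of *Pcsk1*, 72 before that of *Chgb* and 68 before that of *Scg2*, counted to its first base from the RefSeq start, which can differ from the GENCODE start above. The 120 bases before each start are shown because *Pcsk1* and *Chgb* gave the 2 largest differences of any member in β-cells and *Scg2* shares their element, with the element in capitals, for *Pcsk1* at chr13:75089737-75089856 (+), for *Chgb* at chr2:132781522-132781641 (+) and for *Scg2* at chr1:79440027-79440146 (−).
Pcsk1: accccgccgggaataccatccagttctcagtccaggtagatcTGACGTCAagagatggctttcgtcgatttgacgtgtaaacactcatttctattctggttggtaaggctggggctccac
Chgb: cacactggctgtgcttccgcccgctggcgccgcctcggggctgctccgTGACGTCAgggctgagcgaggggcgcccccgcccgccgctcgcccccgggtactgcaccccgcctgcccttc
Scg2: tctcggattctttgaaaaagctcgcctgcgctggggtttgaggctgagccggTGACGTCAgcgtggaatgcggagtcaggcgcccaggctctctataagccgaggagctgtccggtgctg

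Motifs of the factors that IFN-γ activates were searched in the same windows. TTCNNNGAA, the letters of a STAT site, which also read the same on both strands, were in 2 of the 9 members and in 8.3% of all windows. They began 113 bases before the start of *Scg2*, and 55 and 46 bases before the start of *Scg5*. GAAA, 2 bases of any kind and GAAA again, the letters of an interferon-stimulated response element, were in 1 member, beginning 164 bases before the start of *Pcsk1*, and in 3.44% of all windows on either strand. The motifs do not overlap each other in these windows, and a match describes letters, not binding.

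The 8 matrices held 26549922 to 50731370 UMIs (unique molecular identifiers, each a captured RNA molecule) and 17426 barcodes, of which 10876 were kept. Clusters were formed without the 10 members and named from fixed lists of cell type markers, with hormone and transcription factor genes among them. This gave 454 to 1660 β-cells, 49 to 97 α-cells and 8 to 86 δ-cells per library. The 39 and 29 PP-cells of the untreated libraries were used, where *Ppy* stood at 307900 and 302800 CPM (counts per 1000000 UMIs of a cell type in a library). The 2 to 4 cells so named in each library with cytokines held 1280 to 43250, so PP-cells are described only untreated. α-cells are *Gcg*-rich but also held 10280 to 64730 CPM of *Ppy*. At most 2 barcodes were shared by any pair of libraries.

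In untreated islets *Pcsk1* was the member that differed most between cell types. β-cells held 200 and 185 CPM (replicates 1 and 2, scaled by TMM, the trimmed mean of M-values, over the untreated sums), δ-cells 33.9 and 35.8, PP-cells 24.5 and 9.61, and α-cells 6.04 and 3.52. Both β-cell values were above all others, and PP- and δ-cells did not overlap. The level in α-cells was 41.3-fold below that in β-cells (log2 −5.37 ± 0.23 SE, adjusted p = 2e-32 in edgeR's quasi-likelihood test), that in PP-cells 10.2-fold below (adjusted p = 1.35e-14) and that in δ-cells 5.58-fold below (adjusted p = 2.7e-20). δ-cells were above α-cells (log2 2.89 ± 0.35, adjusted p = 4.3e-10), while δ- and PP-cells as neighbours did not differ beyond their spread (log2 −0.87 ± 0.43, adjusted p = 0.312). The step from α- to PP-cells had an adjusted p of 0.0485, with 2 of 7 alternative settings under 0.05.

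Free RNA can reach other droplets, so *Ins1* was measured beside *Pcsk1*. Non-β subclusters led by insulin genes, 73 and 61 cells of the untreated libraries, had been left out before. As a share of the level in β-cells of the same library, *Ins1* was 1.23% and 1.40% in untreated α-cells and *Pcsk1* 4.41% and 2.66%, from 9 and 7 *Pcsk1* UMIs. In untreated endothelial cells *Ins1* was 0.876% and 0.956% and *Pcsk1* 1.22% and 1.86%, and in untreated macrophages *Ins1* was 3.87% and 9.38% and *Pcsk1* 3.41% and 7.14%. The α-cell share of *Pcsk1* lay above that of these cell types in replicate 1 and between them in replicate 2. Beside *Ins1*, α-cells held more *Pcsk1* than macrophages in both replicates. They held more than endothelial cells in replicate 1 only, and replicate 2 was close. Insulin-led cells were not taken out of macrophages or endothelial cells. The part of β-cell RNA in α-cells was not tested. In δ-cells *Pcsk1* stood at 27.7% and 26.4% of the β-cell level against 1.21% and 6.88% for *Ins1*, above all of these. When each cell was thinned to 4000 UMIs, 17.1% and 12.5% of untreated δ-cells held a *Pcsk1* UMI, against 3.23% and 1.14% of α-cells and 3.57% and 0% of macrophages (0 of 53 cells, exact interval up to 6.72%). Cells under that depth were left out (4 and 5 δ-cells, 1 and 8 α-cells, 10 and 18 macrophages), and unthinned shares were 31.4% and 48.9%, 6.38% and 3.13%, and 2.63% and 4.23%.

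The levels of *Pcsk2*, the other convertase, depended on the scale. It stood at 1614 and 1854 CPM in β-cells, 1997 and 2381 in α-cells, 1532 and 1788 in δ-cells and 1762 and 1841 in PP-cells, and the ranges of β-, δ- and PP-cells overlapped. On that scale none of its 6 pairs of types passed the test, with adjusted p from 0.0606 (δ against α) to 0.847 (PP against β). With total UMIs all pairs but PP against β passed, α-cells being above β-cells (log2 0.85, adjusted p = 9.29e-09), δ-cells above β-cells (0.52) and below α-cells (−0.33), and PP-cells below α- (−0.91) and δ-cells (−0.58). *Scg3* also passed in no pair with TMM. It stood at 647 and 595 in β-cells, 603 and 471 in α-cells, 534 and 484 in δ-cells and 526 and 409 in PP-cells, and its smallest adjusted p was 0.0536 (PP against β). With total UMIs its differences from β-cells turned from −0.22 to 0.29 in α-cells and from −0.29 to 0.30 in δ-cells, both called (adjusted p = 0.0310 and 0.0347), and PP-cells were called below β- (−0.52), α- (−0.82) and δ-cells (−0.82).

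Over all members, 31 of the 60 tests (10 members, 6 pairs) were called in untreated cells. Of the 10 members, 7 were called between α- and β-cells, where 38% of 9317 genes were, 5 between δ- and β-cells (28.8%), and 5 between PP- and β-cells (16.4%). Between non-β types, 4 were called for δ against α (14.6%), 6 for PP against α (2.44%) and 4 for PP against δ (4.19%). Scaling to total UMIs moved the median of all genes by 0.53 for α against β and by 0.60 for δ against β. With it 86.7% of the genes called for α against β and 92.1% of those for δ against β were higher, where TMM gave 47.2% and 47.4%. It called 9 members for α against β, 9 for δ against β, 6 for PP against β, 5 for δ against α, 7 for PP against α and 7 for PP against δ.

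*Chgb* was highest in δ-cells, at 2949 and 2330 CPM, with 1838 and 1360 in PP-cells, 1173 and 1433 in β-cells and 743 and 608 in α-cells. δ-cells were above β-cells (log2 1.0 ± 0.15, adjusted p = 9.78e-08) and above α-cells (log2 1.97 ± 0.16, adjusted p = 5.39e-17), and PP-cells were below δ-cells (log2 −0.72 ± 0.16, adjusted p = 0.00149). PP- and β-cells overlapped and did not differ beyond their spread (adjusted p = 0.238). α-cells were below β-cells (log2 −0.97 ± 0.15, adjusted p = 2.07e-07), but with total UMIs as the scale the difference was −0.46 (adjusted p = 0.190).

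*Chga* followed another order. It was highest in β-cells, at 6328 and 4657 CPM, then 2728 and 2294 in α-cells, 2439 and 1857 in δ-cells and 1481 and 1384 in PP-cells. The other 3 types were all below β-cells, with log2 −1.12 ± 0.16 for α-, −1.35 ± 0.16 for δ- and −1.93 ± 0.17 for PP-cells (adjusted p = 2.95e-08, 2.28e-10 and 1.02e-14). The neighbours α and δ overlapped and did not differ beyond their spread (adjusted p = 0.419). *Scg2* set α-cells apart, at 943 and 916 against 2104 and 1724 in β-cells (log2 −1.03 ± 0.15, adjusted p = 2.33e-08), 2357 and 1970 in δ-cells and 2178 and 1557 in PP-cells.

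The amidating enzyme gene *Pam* was lowest in β-cells, at 259 and 316 CPM, with 716 and 653 in α-cells, 543 and 565 in δ-cells and 436 and 447 in PP-cells. No type overlapped another, and α-cells were 2.39-fold above β-cells (adjusted p = 3.17e-13). In untreated endothelial cells *Pam* had the largest share of the β-cell level of any member, at 29.2% and 21.2%. *Cpe* came next there, at 3.80% and 3.03%. *Cpe* was lowest in δ-cells, at 699 and 831 against 1218 and 1302 in β-cells, 1420 and 1269 in α-cells and 1397 and 1024 in PP-cells. δ-cells were below β-cells (log2 −0.72 ± 0.14, adjusted p = 4.34e-05), a difference that was −0.14 with total UMIs (adjusted p = 0.354), and below α-cells (log2 −0.81 ± 0.15, adjusted p = 1.45e-05) on both scales.

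*Scg5*, the PC2 chaperone gene, was highest in PP-cells, at 1887 and 1557 CPM, with 1276 and 1027 in α-cells, 987 and 888 in δ-cells and 877 and 643 in β-cells. PP-cells were 2.28-fold above β-cells (adjusted p = 5.17e-10). The difference between PP- and α-cells, log2 0.58, was −0.05 with total UMIs. *Pcsk1n* was higher in PP-cells (log2 0.66 ± 0.16, adjusted p = 0.00101) and in α-cells (log2 0.48 ± 0.15, adjusted p = 0.00787) than in β-cells, with 2369 and 2191, 2292 and 1747, and 1677 and 1226 CPM.

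**Figure D1:**
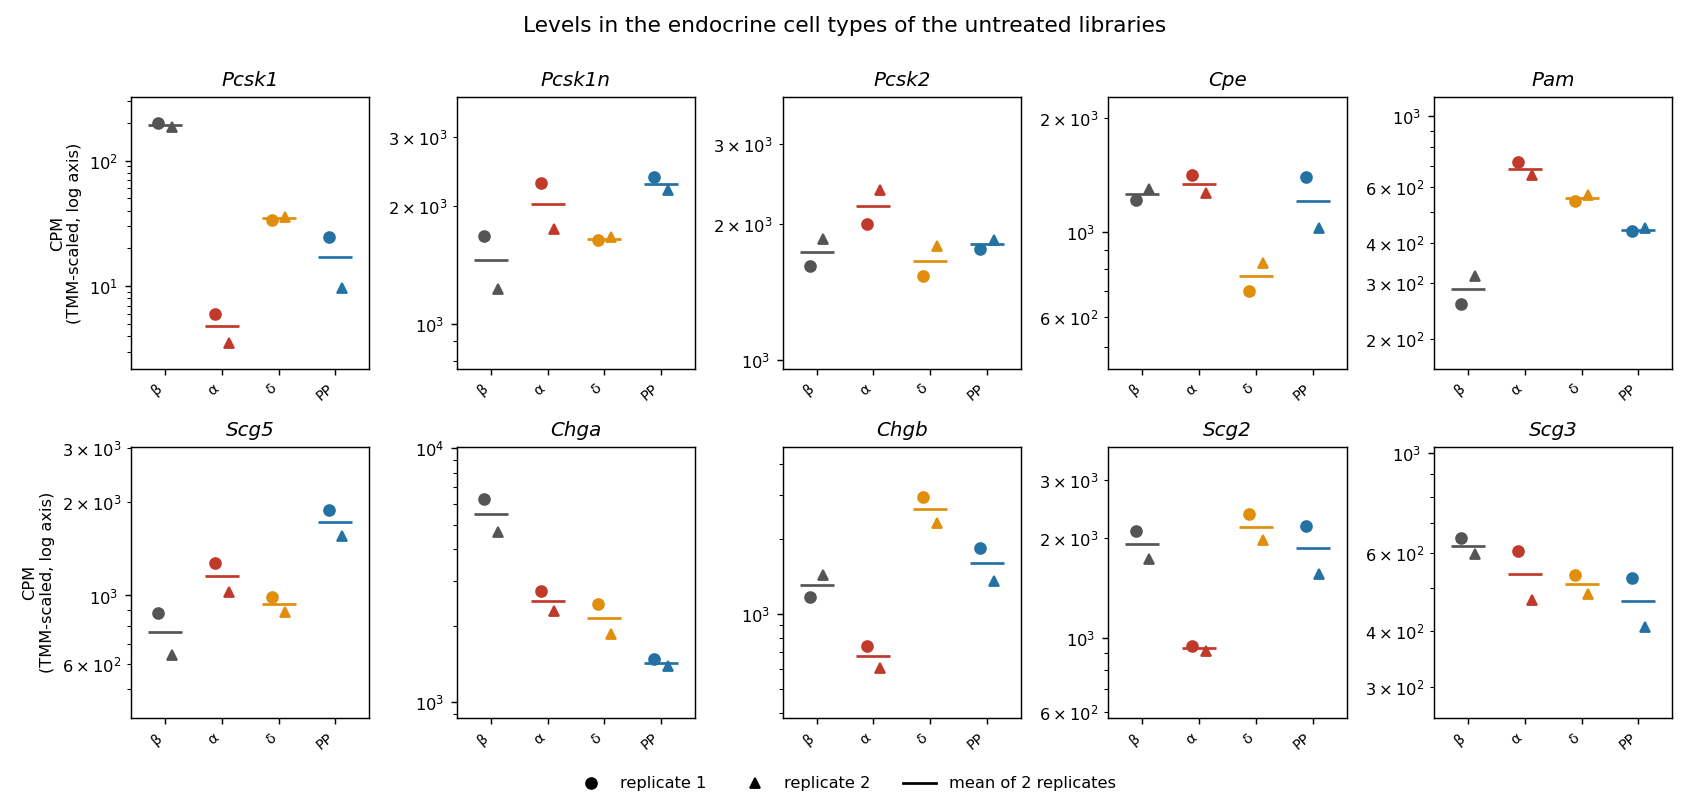
Level of each member in CPM (TMM-scaled, log axis) in β-, α-, δ- and PP-cells of the untreated libraries. Points are the 2 replicates and lines their mean. *Pcsk1* spans 3.52 to 200, while *Pcsk2* lies between 1532 and 2381 in every type.

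In β-cells *Pcsk1* fell and *Cpe* rose with cytokines, whereas *Chgb*, *Scg3* and *Cpe* rose with cytokines and NMMA. Of the 10 members 2 were called for cytokines against untreated, 1 in each direction, where 46.2% of the 12777 genes tested were called. For cytokines with NMMA against untreated 3 were called, all higher, where 22.6% of genes were. For cytokines against cytokines with NMMA 2 were called, both lower with cytokines alone, where 19.3% of genes were. For NMMA against untreated none was called, and 0% of genes were, with 933 genes and 0 members at an unadjusted p under 0.05 in edgeR and 0 members called by DESeq2. The first count lies below the share of all genes and the next 2 lie near it, so nothing is read from them for the members as a group. The median log2 difference of the members was −0.00, 0.13, −0.00 and 0.06, against 0.00, −0.00, −0.02 and 0.00 for all genes.

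Libraries of a replicate come from 1 pool, and a fit with that replicate block called more members. It called 8 of 10 for cytokines against untreated (4 higher, 4 lower, and 62.9% of all genes), 8 for cytokines with NMMA against untreated (5 higher, 3 lower, and 40.7% of genes) and 7 for cytokines against cytokines with NMMA (3 higher, 4 lower, and 40.7% of genes). For NMMA against untreated it called 1, *Pam* (log2 0.40, adjusted p = 0.0324, and 3.46% of genes). Calls that the block adds are given below with each gene.

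*Pcsk1* stood at 161 and 148 CPM in untreated β-cells (here and below scaled by TMM over the sums of 1 cell type, so that values differ from those between types), at 82.7 and 64.5 with cytokines, at 165 and 151 with cytokines and NMMA and at 183 and 167 with NMMA alone. Both libraries with cytokines alone were below the other 6. The level fell by 1.07 ± 0.15 on the log2 scale with cytokines (2.10-fold, adjusted p = 0.000652), by 0.96 in replicate 1 and 1.2 in replicate 2. It was 2.14-fold lower with cytokines than with cytokines and NMMA (log2 −1.10 ± 0.15, adjusted p = 0.00373). With cytokines and NMMA it differed from untreated by 0.03 ± 0.15 (adjusted p = 0.925). Both decreases passed in all 15 alternative fits. After thinning to 4000 UMIs, a *Pcsk1* UMI was in 24.3% and 17.9% of β-cells with cytokines, against 39.4% to 50.1% in the other 6 libraries, which overlap neither. Between 7 and 56 cells of a library were too shallow and left out, and without thinning the shares were 72.0% and 66.0% against 75.8% to 93.4%.

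*Cpe* stood at 982 and 1044 CPM untreated, at 1659 and 1559 with cytokines, at 1424 and 1345 with cytokines and NMMA and at 1018 and 1169 with NMMA alone. The 4 libraries with cytokines lay above the 4 without. It rose 1.59-fold with cytokines (log2 0.67 ± 0.13, adjusted p = 0.00338, called in 15 of 15 alternatives) and 1.37-fold with cytokines and NMMA (log2 0.45 ± 0.13, adjusted p = 0.0376). The second call held in 4 of 14 alternatives and in 0 of the 8 fits that leave out a library, whose log2 values were 0.40 to 0.49 (adjusted p up to 0.215). Cytokines alone and with NMMA differed by 0.22 ± 0.13 (adjusted p = 0.277).

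*Chgb* had its highest levels with cytokines and NMMA together. It stood at 946 and 1149 CPM untreated, at 1278 and 1468 with cytokines, at 2356 and 2557 with cytokines and NMMA and at 1041 and 1110 with NMMA alone. The 2 libraries with cytokines and NMMA lay above all others, and those with cytokines alone came next. *Chgb* rose 2.35-fold with cytokines and NMMA (log2 1.23 ± 0.15, adjusted p = 0.000446, 14 of 14 alternatives) and was 1.79-fold lower with cytokines alone than with cytokines and NMMA (log2 −0.84 ± 0.15, adjusted p = 0.00748). Without cytokines replicate 1 this last difference was −0.74 (adjusted p = 0.0646), and it passed in the other 7 fits that leave out a library. Cytokines alone against untreated gave 0.39 ± 0.15 (adjusted p = 0.0551), and 0.39 ± 0.08 with the replicate block (adjusted p = 0.000428).

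*Scg3* had its highest levels in the same condition, at 716 and 793 CPM with cytokines and NMMA, against 522 and 477 untreated, 577 and 580 with cytokines and 540 and 497 with NMMA alone. It rose 1.51-fold (log2 0.59 ± 0.13, adjusted p = 0.0112). Without replicate 2 of cytokines with NMMA the difference was 0.52 (adjusted p = 0.0760), without untreated replicate 1 it was 0.66 (adjusted p = 0.0543) and without untreated replicate 2 it was 0.50 (adjusted p = 0.103). Cytokines against cytokines with NMMA gave −0.38 ± 0.13 (adjusted p = 0.0717, and 0.00227 with the replicate block), and cytokines against untreated gave 0.21 ± 0.13 (adjusted p = 0.217, and 0.0459 with the block).

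*Pam* lay in the opposite order for cytokines alone and with NMMA. It stood at 209 and 253 CPM untreated, 139 and 216 with cytokines, 253 and 359 with cytokines and NMMA and 271 and 338 with NMMA. Replicate 2 was above replicate 1 in every condition, and the 2 cytokine conditions did not overlap. Cytokines against cytokines with NMMA gave −0.78 ± 0.25 (adjusted p = 0.0573) without the block and −0.79 ± 0.10 with it (adjusted p = 8.69e-06). DESeq2 (adjusted p = 0.00676), the fit without a low-count filter (0.000941) and that with total UMIs (0.0347) also called it. Against untreated the blocked fit called *Pam* lower with cytokines (−0.40 ± 0.10, adjusted p = 0.00162, and 0.244 without the block) and higher with cytokines and NMMA (0.39 ± 0.10, adjusted p = 0.00388, and 0.287 without it).

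The remaining members were not called without the block, where replicates of a condition lay apart. *Scg5* stood at 707 and 515 CPM untreated and at 1010 and 767 with cytokines (log2 0.54 ± 0.27, adjusted p = 0.137, and 2.2e-05 with the block). The block also called it higher with cytokines and NMMA than untreated (0.23 ± 0.08, adjusted p = 0.0391) and higher with cytokines than with cytokines and NMMA (0.32 ± 0.08, adjusted p = 0.0056). *Scg2* stood at 1697 and 1382 untreated, 1234 and 1028 with cytokines and 1239 and 1042 with cytokines and NMMA. Its differences from untreated were −0.45 ± 0.21 and −0.43 ± 0.21 (adjusted p = 0.115 and 0.184, and 0.00039 and 0.000974 with the block). Without a low-count filter *Scg5* and *Scg2* also passed for cytokines against untreated (adjusted p = 0.0277 and 0.0361). *Pcsk2* stood at 1302 and 1486 untreated, 1099 and 1118 with cytokines and 1014 and 1202 with cytokines and NMMA, differences of −0.33 ± 0.17 in both (adjusted p = 0.137 and 0.197, and 0.00462 and 0.00649 with the block).

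*Chga* stood at 5103 and 3732 CPM untreated, 4539 and 3256 with cytokines, 3603 and 2619 with cytokines and NMMA and 4587 and 2730 with NMMA alone, and all conditions overlapped except untreated and cytokines with NMMA. For cytokines with NMMA against untreated it was called with the block (log2 −0.51 ± 0.08, adjusted p = 0.000104) and without a low-count filter (−0.54, adjusted p = 0.0165). With the block it was also higher with cytokines than with cytokines and NMMA (0.32 ± 0.08, adjusted p = 0.00538). *Pcsk1n* stood at 1352 and 983 untreated and 1482 and 1145 with cytokines (log2 0.17 ± 0.23, adjusted p = 0.583). It passed in no fit against untreated, and with the block alone it was higher with cytokines than with cytokines and NMMA (log2 0.30 ± 0.08, adjusted p = 0.00796).

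The scale matters for the smaller differences. Total UMIs instead of TMM lowered the median of all genes by 0.22 for cytokines against untreated and by 0.23 for cytokines against cytokines with NMMA, and 33.7% and 14.8% of the genes called were then higher, against 51.3% and 46.3%. On that scale *Pcsk1*, *Scg2* and *Pcsk2* were called lower and *Cpe* higher with cytokines than untreated. Each β-cell cluster held mostly 1 replicate. Of these clusters 5 held mostly libraries either with or without cytokines, and the other 2, led by heat shock genes, held cells of all 4 conditions. *Hspa1a* in β-cells stood at 354 and 545 CPM with cytokines against 58.2 and 257 untreated. Without those clusters 3 members were called for cytokines against untreated, *Chgb* being added (log2 0.42, adjusted p = 0.0486).

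**Figure D2:**
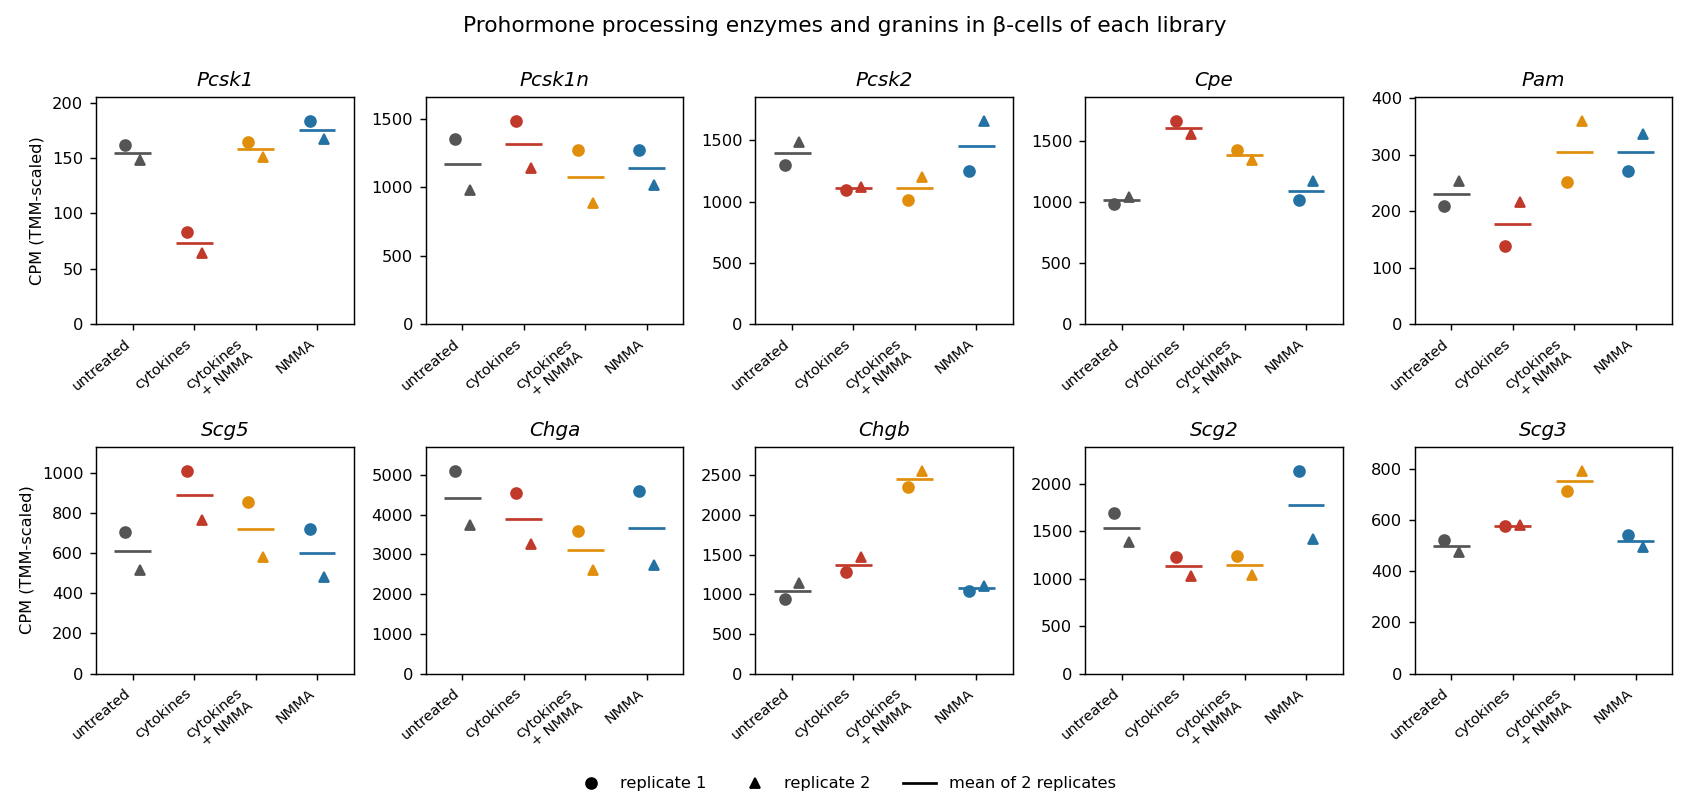
Level of each member in β-cells, in CPM (TMM-scaled, axis from 0), by condition. Circles are replicate 1, triangles replicate 2 and lines their mean. *Pcsk1* is low in both libraries with cytokines (82.7 and 64.5), and *Chgb* is highest in both with cytokines and NMMA (2356 and 2557).

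**Figure D3:**
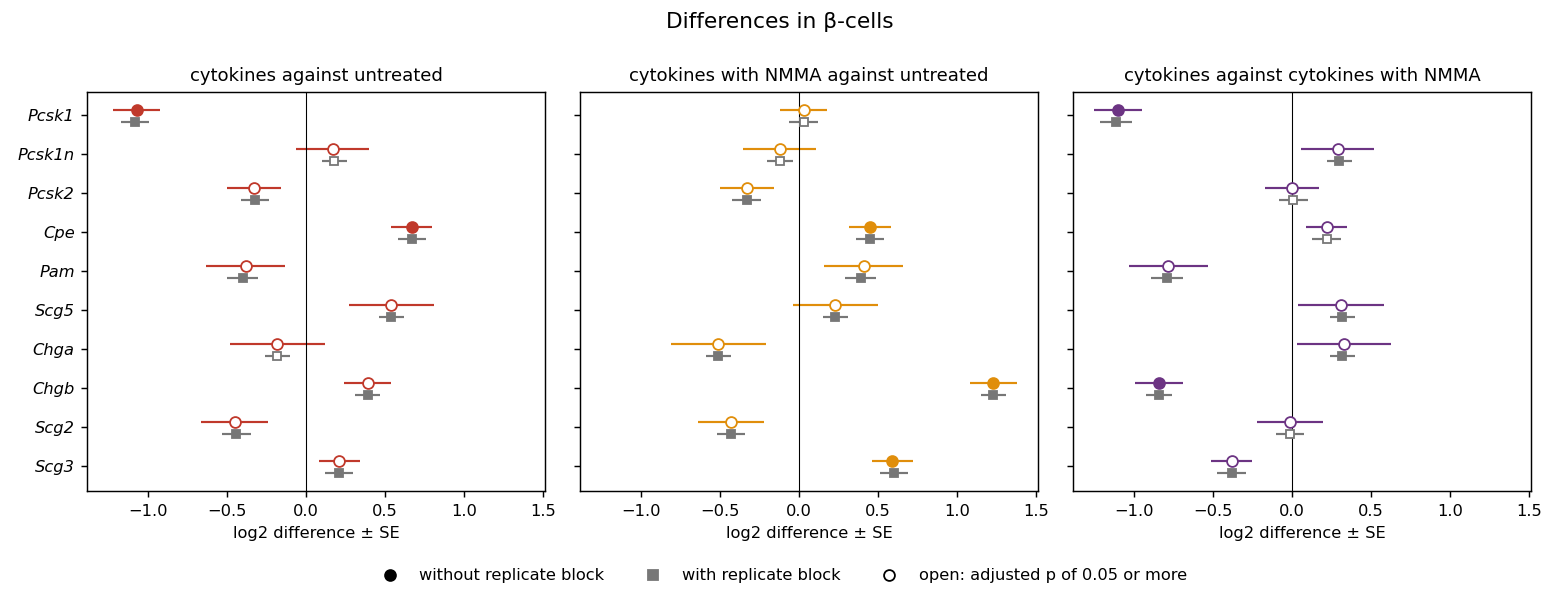
Log2 differences of the members in β-cells (± SE) for 3 comparisons, which share condition groups. Coloured circles are the fit without and grey squares the fit with the replicate block, and open symbols did not pass an adjusted p of 0.05. The estimates of both fits lie together and the SE is smaller with the block.

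Other genes of the pathway were counted from lists chosen by function. Of 17 other convertases and trimming enzymes, 13 were tested in β-cells, and 4 were higher and 3 lower with cytokines than untreated (3 and 3 with cytokines and NMMA), beside 46.2% and 22.6% of all genes. Among them cathepsin B (*Ctsb*) rose most, from 168 and 218 to 681 and 669 CPM (log2 1.81 ± 0.23, adjusted p = 0.000314), and cathepsin L (*Ctsl*), a lysosomal protease, rose by log2 1.04 ± 0.17 (adjusted p = 0.0014). *Qpct*, the glutaminyl cyclase gene, rose by 0.85 ± 0.24 (adjusted p = 0.0166) from 2.01 and 2.90 CPM. *Pcsk4* fell by 1.09 ± 0.20 on the log2 scale (adjusted p = 0.00205). None of these 4 was called between cytokines with and without NMMA, where only 1 gene of the list passed, lower with cytokines alone.

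Of 16 granule proteins and genes of granule formation, all were tested, and 2 were higher and 3 lower with cytokines than untreated, beside 46.2% of all genes. The zinc transporter *Slc30a8*, which loads granules with zinc, went from 318 and 221 CPM to 120 and 85.9 (log2 −1.39 ± 0.27, adjusted p = 0.00391) and to 81.7 and 70.8 with cytokines and NMMA. *Ica1l* (−0.61 ± 0.19, adjusted p = 0.0283) and the granule membrane protein gene *Ptprn2* (−0.48 ± 0.13, adjusted p = 0.0169) also fell. *Atp6ap2*, an accessory protein of the proton pump (0.67 ± 0.17, adjusted p = 0.0124), and *Nucb2* (0.40 ± 0.12, adjusted p = 0.0263) rose. Between cytokines with and without NMMA none of the 16 was called without the block, and 5 were with it (4 higher and 1 lower). Of 7 hormone precursors only *Ins1* was called with cytokines (log2 −0.47 ± 0.15, adjusted p = 0.0263).

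In the cells named α, *Pcsk1n*, *Cpe* and *Scg5* were higher with cytokines, and *Chgb* was higher with cytokines and NMMA. With cytokines alone most of these cells lay in 1 cluster with a low α-cell marker score, described below. Of the 10 members 3 were called for cytokines against untreated, all higher, where 22.7% of 9663 genes were called, 2 for cytokines with NMMA against untreated (8.49% of genes) and 1 for cytokines against cytokines with NMMA (11.4% of genes). For NMMA against untreated none was called, as for all genes (0%, with 349 genes and 2 members at an unadjusted p under 0.05 in edgeR, and 0 members by DESeq2). With the replicate block 7 were called for cytokines against untreated (29.6% of genes) and 7 for cytokines against cytokines with NMMA (19.2% of genes). Those added against untreated were *Scg2* (0.43 ± 0.15, adjusted p = 0.0265) and *Chga* (0.41 ± 0.15, adjusted p = 0.0362), beside *Chgb* and *Pam* below. Between cytokines with and without NMMA the block added *Scg5* (0.64), *Cpe* (0.61), *Chga* (0.58) and *Pcsk2* (0.50), higher with cytokines alone, and *Pam* (−0.64) and *Chgb* (−0.60), lower (adjusted p = 0.00203 to 0.0211).

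*Pcsk1n* stood at 2449 and 1887 CPM in untreated α-cells, 5411 and 3120 with cytokines, 2205 and 2068 with cytokines and NMMA and 2305 and 2251 with NMMA. Both cytokine libraries lay above the other 6. It rose 1.97-fold (log2 0.98 ± 0.24, adjusted p = 0.00684) and was 2.0-fold higher with cytokines alone than with cytokines and NMMA (adjusted p = 0.0118). That second difference was log2 0.59 without cytokines replicate 1 (adjusted p = 0.186), 1.04 and 0.95 without replicate 1 or 2 of cytokines with NMMA (0.0664 and 0.0949) and 0.58 with total UMIs (0.0582), a scale that called *Chgb* and *Pam* instead, both lower with cytokines alone. *Cpe* stood at 1518 and 1371 untreated, 3323 and 2263 with cytokines, 2004 and 1624 with cytokines and NMMA and 1515 and 1327 with NMMA, and rose 1.93-fold (log2 0.95 ± 0.22, adjusted p = 0.00482). *Scg5* stood at 1363 and 1110 untreated, 2815 and 1916 with cytokines, 1651 and 1352 with cytokines and NMMA and 1160 and 1140 with NMMA, and rose 1.91-fold (log2 0.94 ± 0.22, adjusted p = 0.00562). For each of the 3 genes the libraries with cytokines alone lay above all others.

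These 3 increases depended on the scale and on single libraries, and most α-cells with cytokines alone lay in 1 cluster. With total UMIs, which lowers the median of all α-cell genes by 0.52 (18.7% of calls higher, against 59.7%), none of the 3 passed and the member called was *Pam* (log2 −1.05). Without untreated replicate 2 their differences were 0.80, 0.88 and 0.79 for *Pcsk1n*, *Cpe* and *Scg5* (adjusted p = 0.114, 0.0699 and 0.0960), and without cytokines replicate 1 they were 0.57, 0.69 and 0.68 (adjusted p = 0.141, 0.0665 and 0.0745). A single α-cell cluster led by *Hspa1a* held 49 of 49 α-cells of cytokines replicate 1 and 55 of 70 of replicate 2. Its α-cell score, the mean standardized level of the α-cell markers, was 0.08, against 0.85 to 1.79 in the other α-cell subclusters. That was still its best score, with 7 α-cell markers detected and 0 among its 10 leading genes. *Hspa1a* stood at 1216 and 891 CPM in α-cells with cytokines against 121 and 35.7 untreated, and its part in the result was not tested. The 15 cells of replicate 2 outside heat shock-led clusters had log2 differences from untreated of −0.24 for *Pcsk1n*, 0.18 for *Cpe* and 0.24 for *Scg5*, with no second cytokine library.

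*Chgb* in α-cells stood at 794 and 656 CPM untreated, 962 and 1307 with cytokines, 1435 and 2016 with cytokines and NMMA and 1031 and 1276 with NMMA. The libraries with cytokines and NMMA were the highest. It rose 2.38-fold with cytokines and NMMA (log2 1.25 ± 0.23, adjusted p = 0.0013) and passed in 14 of 14 alternatives, total UMIs among them (log2 1.13). Cytokines alone gave 0.65 ± 0.23 (adjusted p = 0.0513, and 0.00331 with the block). *Pam* stood at 765 and 706 untreated, 534 and 479 with cytokines, 832 and 748 with cytokines and NMMA and 1106 and 715 with NMMA. Both cytokine libraries were the lowest, with a difference from untreated of −0.54 ± 0.22 (adjusted p = 0.0929, and 0.00782 with the block).

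*Pcsk1* in α-cells stood at 6.46 and 3.80 CPM untreated, 16.2 and 8.91 with cytokines, 10.5 and 17.4 with cytokines and NMMA and 10.5 and 11.8 with NMMA. Each treated condition lay above untreated, and cytokines alone (log2 1.22 ± 0.52) and NMMA alone (1.16 ± 0.49) were not called. *Pcsk1* was called higher in α-cells with cytokines and NMMA (log2 1.47 ± 0.44, adjusted p = 0.0455), in 5 of 14 alternatives. It was 1.06 without replicate 2 of cytokines with NMMA (adjusted p = 0.403), 1.1 without untreated replicate 2 (0.400) and 1.86 without untreated replicate 1 (0.0808), and about the same but not called without NMMA replicate 1 (0.0699) or 2 (0.0726). Its α-cell level was 6.60% and 10.9% of that in β-cells of those libraries, from 19 and 34 UMIs, while *Ins1* stood at 3.87% and 12.3% and *Ins2* at 4.86% and 13.2%. With cytokines alone *Pcsk1* was at 16% and 12.9%, from 10 UMIs in each library, and *Ins1* at 13.4% and 8.82%. The insulin genes in α-cells were thus higher in the same conditions, and the part of β-cell RNA in the *Pcsk1* difference was not tested. Insulin-led subclusters had been left out, 73 and 61 cells untreated and 14 and 126 with NMMA. With cytokines they held 1 and 0 cells, and with cytokines and NMMA 0 and 0. The divisor moved too, as β-cell *Pcsk1* was 73.8 and 57.9 CPM with cytokines against 165 and 157 untreated, without TMM scaling. The effect of either on these shares was not tested. *Pcsk1n*, *Pcsk2* and *Scg5* in α-cells stood at 157% to 298% of the β-cell level in all 8 libraries, as CPM without TMM scaling.

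**Figure D4:**
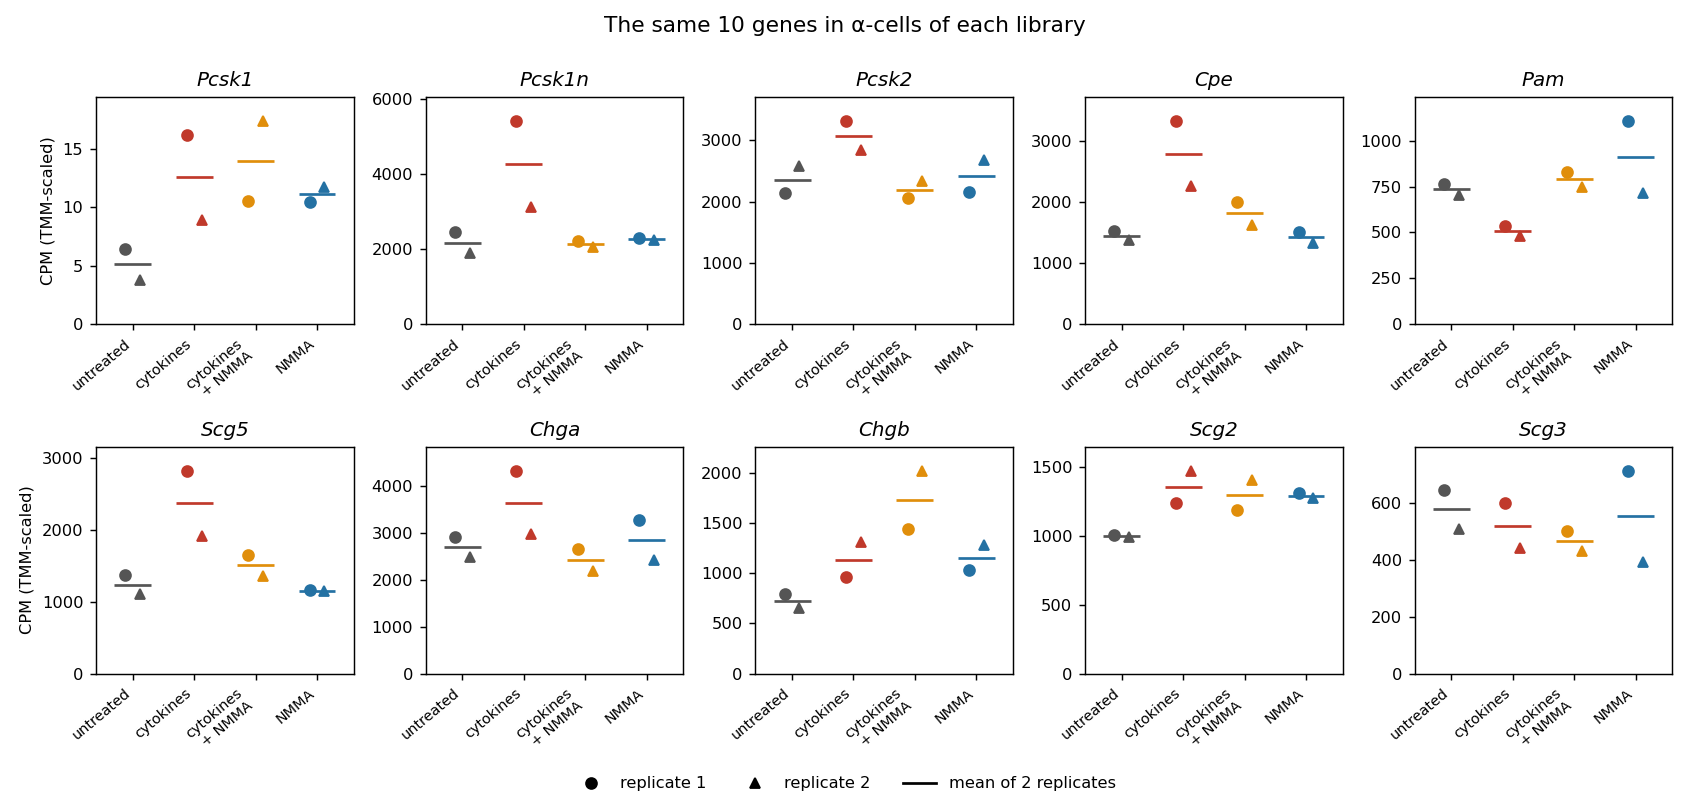
Level of each member in α-cells, in CPM (TMM-scaled, axis from 0), with symbols as for β-cells. *Pcsk1n* is highest in both libraries with cytokines (5411 and 3120) and *Chgb* in both with cytokines and NMMA (1435 and 2016).

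**Figure D5:**
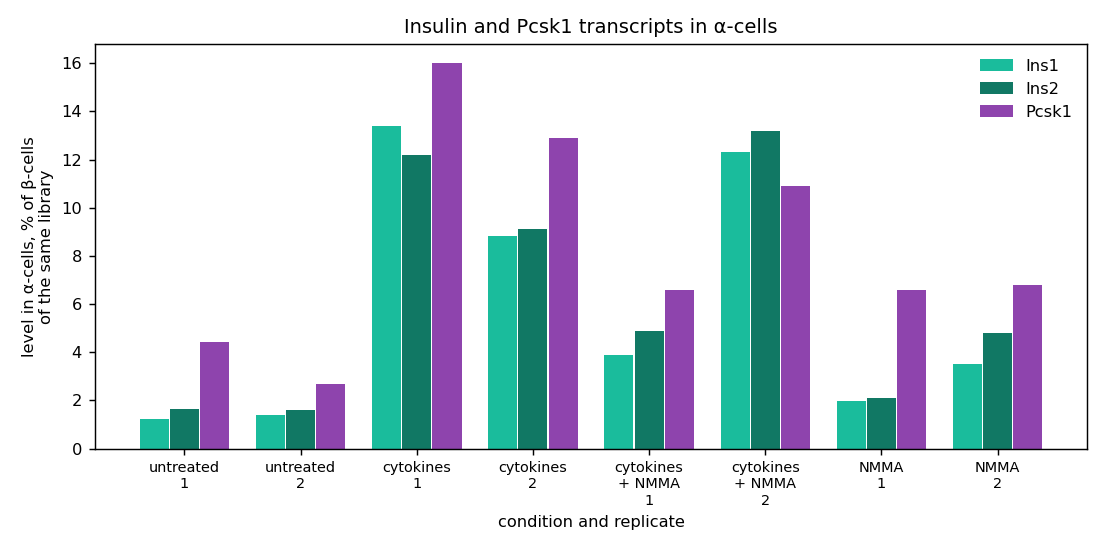
Level of *Ins1*, *Ins2* and *Pcsk1* in α-cells as percent of the level in β-cells of the same library, by condition and replicate. All 3 genes are lowest in untreated islets (1.23% to 4.41%), with 1.98% to 6.81% with NMMA alone and 3.87% to 16% in the 4 libraries with cytokines. The β-cell level of *Pcsk1*, by which its share is divided, is itself lower with cytokines alone. Insulin-led subclusters were left out, almost all from libraries without cytokines.

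In δ-cells cytokines alone can be judged only from replicate 2, since replicate 1 held 8 such cells and was left out, and replicate 2 held 11. Of the 10 members 3 were called lower with cytokines than untreated, where 6.27% of 9602 genes were called, and 4 with the replicate block (8.69% of genes), which added *Chga* (−0.77 ± 0.23, adjusted p = 0.0139). *Pcsk1n* stood at 2108 and 2152 CPM untreated and 939 in the 1 cytokine library (log2 −1.18 ± 0.31, adjusted p = 0.0255). *Pcsk2* stood at 1976 and 2317 against 934 (log2 −1.20 ± 0.30, adjusted p = 0.0195), and *Scg3* at 688 and 628 against 275 (log2 −1.26 ± 0.32, adjusted p = 0.0211). The single value lay below both untreated values for each, and the lone library is assumed to vary like the other groups. None of the 3 was called when cells were clustered with all variable genes (log2 −0.92, −0.80 and −1.0 in that order, adjusted p = 0.0647, 0.125 and 0.0614), nor without untreated replicate 1 (−1.20, −1.32, −1.20) or 2 (−1.09, −1.0, −1.24), nor without replicate 1 of cytokines with NMMA (−1.19, −1.20, −1.26). With replicate 1 of cytokines added, its 8 cells included, *Pcsk1n* gave −0.65 and *Scg3* −0.80 (adjusted p = 0.214 and 0.130). Without replicate 2 of cytokines with NMMA 1 member was called, *Scg3*. The δ-cells of cytokines replicate 2 held *Ins1* at 29.6% of the β-cell level, against 1.21% and 6.88% in untreated δ-cells. Other β-cell genes there did not follow *Ins1* to that extent. *Ins2* was at 6.86% (untreated 2.18% and 6.86%), *G6pc2* at 6.65% (2.59% and 7.64%) and *Mafa* at 13.4% (2.82% and 9.16%).

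*Chgb* in δ-cells stood at 3805 and 3019 CPM untreated, 2976 with cytokines, 5182 and 7014 with cytokines and NMMA and 5008 and 2989 with NMMA. The libraries with cytokines and NMMA were the highest, as in β- and α-cells of the same libraries. The difference from untreated was 0.84 ± 0.28 (adjusted p = 0.0708, and 2.52e-05 with the block), and it was not tested whether it differs from that in β-cells. No member was called for cytokines with NMMA against untreated (8.75% of genes, with 1 member at an unadjusted p under 0.05 in edgeR and 0 by DESeq2) or for cytokines against cytokines with NMMA (2.59% of genes, 4 members unadjusted and 0 by DESeq2). The block called 4 (16.4% of genes) and 3 (5.35% of genes). The first 4 were *Chgb*, *Cpe* (0.42), *Pcsk1n* (−0.49) and *Scg3* (−0.41), and the 3 were *Chgb* (−0.95), *Pcsk2* (−0.91) and *Scg3* (−0.80), lower with cytokines alone. For NMMA against untreated none was called (0% of genes, 277 unadjusted, 0 members, and 0 by DESeq2).

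The difference of the cytokine effect between cell types was tested with the library as a block. Between α- and β-cells 4 members were called, all with a more positive effect in α-cells, where 4.37% of 12801 genes were called. They were *Pcsk1* (log2 2.36 ± 0.47, adjusted p = 0.000729), *Scg2* (0.90 ± 0.22, adjusted p = 0.00747), *Pcsk1n* (0.78 ± 0.20, adjusted p = 0.0143) and *Pcsk2* (0.74 ± 0.20, adjusted p = 0.0169). *Scg2* stood lower with cytokines in β-cells (−0.45 ± 0.21) and higher in α-cells (0.44 ± 0.20). Neither was called without the replicate block, and both were with it (adjusted p = 0.00039 and 0.0265). *Pcsk2* also stood lower in β-cells (−0.33 ± 0.17) and higher in α-cells (0.39 ± 0.21), neither called without the block. With the block it was called in β-cells (adjusted p = 0.00462) but not in α-cells (0.0522). With total UMIs the α-cell values were −0.06 for *Scg2* and −0.13 for *Pcsk2*. On that scale *Pcsk2* was not called in the difference, and the median of all genes in this test moved to −0.35. Leaving out a library ended the calls of *Pcsk1n*, *Pcsk2* and *Scg2* in 2 or 3 of 8 fits each and that of *Pcsk1* in none, and the differences no longer called ranged from 0.58 to 0.83. Without cytokines replicate 1 *Pcsk1n* was 0.58 and *Pcsk2* 0.63, without untreated replicate 1 *Pcsk1n* was 0.73, *Pcsk2* 0.69 and *Scg2* 0.76, without untreated replicate 2 *Pcsk1n* was 0.83 and *Pcsk2* 0.78, and without cytokines replicate 2 *Scg2* was 0.63. *Pcsk1* in untreated α-cells lay above endothelial cells and macrophages in replicate 1 and between them in replicate 2. The part of β-cell RNA in its difference was not tested. With cytokines, 49 of 49 and 55 of 70 α-cells lay in 1 heat shock-led cluster. Of the 1149 and 577 β-cells with cytokines, 1084 and 474 lay outside such clusters. The difference was not fitted without those clusters, and their part in it was not tested.

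Between δ- and β-cells 3 members were called, where 3% of 14412 genes were: *Pcsk1* (2.17 ± 0.44, adjusted p = 0.000139), *Scg3* (−1.52 ± 0.32, adjusted p = 0.000236) and *Pcsk1n* (−1.22 ± 0.30, adjusted p = 0.00497), against a median of all genes of −0.37. *Pcsk1n* was not called by DESeq2 (−1.10), without either library of cytokines with NMMA (−1.12 and −1.19) or without untreated replicate 2 (−0.94). *Pcsk1* in δ-cells stood at 43.7 and 46.4 CPM untreated and 87.0 in the cytokine library (19 UMIs), 50 and 55.9 with cytokines and NMMA and 66.4 and 38.1 with NMMA. The cytokine value was the highest of the 7, whereas in β-cells the cytokine values were the lowest. It was 164% of the β-cell level of its library, where *Ins1* was 29.6% and *Ins2* 6.86%. Without TMM scaling it was 95.1 CPM, against 45.7 and 41.5 untreated. The cytokine library left out (8 cells, 5 *Pcsk1* UMIs) stood at 42.8 on that scale, so the higher value was seen in replicate 2 only. *Chgb* was called in neither difference (0.27 ± 0.21 for α-cells, adjusted p = 0.551, and −0.73 ± 0.31 for δ-cells, adjusted p = 0.227).

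Over the 23 sums of β-, α- and δ-cells by library, the genes whose log2 level ran most like *Pcsk1* among 8932 were *Fkbp1b* (r = 0.961), *Scnn1b* (0.952) and *Phactr1* (0.942). For *Pcsk2* they were *Nudt11* (0.887), *2900026A02Rik* (0.886) and *Fgfr1* (0.860). The sums of a library share that library and its free RNA, and most of the range of *Pcsk1* lies between cell types, so these values are a description without a test.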

How the data were processed

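UMI counts, not normalized, were deposited as 1 matrix per library (8 in all), which the submitters' processing notes credit to Cell Ranger with the mm10 build. The file headers give software version 3.0.0 for replicate 1 and 6.0.0 for replicate 2. The methods name the v3 kit and the labels v2. Only the 30406 gene IDs listed for both replicates were used, which hold at least 99.652% of all UMIs in each matrix. Barcodes with 200 to 5500 genes (6500 in replicate 2) and at most 10% mitochondrial UMIs were kept. Counts per cell were scaled to 10000, and 2000 variable genes without the 10 members and the related processing and granule lists, 30 principal components and 20 neighbours gave Leiden clusters at resolution 1 (scanpy 1.11.5, leidenalg 0.10.2), named from fixed markers. A cluster under 1/3 of its library's median UMIs without own markers among its 10 leading genes stayed unnamed. Clusters of α-, δ- and PP-cells were clustered again. Subclusters that scored as β or had *Ins1* or *Ins2* among their 10 leading genes were left out as insulin-led, almost all from libraries without cytokines. Doublets (0.8% per 1000 barcodes assumed) were removed only as an alternative.

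Counts were summed per class and library (at least 10 cells) and tested with edgeR 4.0.16 in R 4.3.3 (filterByExpr, TMM, robust quasi-likelihood F test), with Benjamini-Hochberg adjustment over all genes tested and a threshold of 0.05. The SE is the log2 change over the square root of F. Cell type and difference tests had the library as a block. Alternatives were DESeq2 1.42.0, total UMIs, no low-count filter, clustering with all variable genes, doublets removed, libraries of any cell number, a replicate block, leaving out each library, NMMA libraries added, and, chosen after seeing the data, leaving out heat shock-led clusters and taking out hormone genes. Shares of cells were counted after thinning to 4000 UMIs, with exact 95% intervals that cover counting error only. The fits were tested on simulated counts.

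All 10 members are named. From the 3 related lists, counts are given and up to 5 called genes with the largest change in β-cells, cytokines against untreated. A gene of these lists is not reported here. The members and lists were chosen with earlier results of these data known. The replicate numbers pair the libraries, since each number is 1 islet pool per the methods. Deviations from the condition means correlated within replicates with r of 0.608 to 0.700 over 6 pairs in β-cells and 0.269 to 0.442 in α-cells.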

Additional observations from a re-analysis of the deposited data

Results flagged for a closer look

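The cytokine effect differed between cell types, by the test of the difference itself, for 5 members. In α-cells minus β-cells the log2 differences were 2.36 for *Pcsk1*, 0.90 for *Scg2*, 0.78 for *Pcsk1n* and 0.74 for *Pcsk2*. In δ-cells minus β-cells they were 2.17 for *Pcsk1*, −1.22 for *Pcsk1n* and −1.52 for *Scg3*. The δ-cell side rests on 1 cytokine library of 11 cells. The α-cell side rests, with cytokines, mostly on 1 heat shock-led cluster, and the difference was not fitted without it. The signs for *Pcsk1n* were opposite in α- and δ-cells, which were not tested against each other.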

How the results depend on the processing

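Values of single members under an alternative setting were counted for a part of the comparisons only. Among those counted, 601 kept their direction and their side of the threshold, 57 were no longer called, 39 were newly called and 23 changed sign. The replicate block called 8 members in place of 2 in β-cells for cytokines against untreated, 8 in place of 3 for cytokines with NMMA against untreated, 7 in place of 2 for cytokines against cytokines with NMMA and 1 in place of 0 for NMMA. In α-cells the replicate block called 7 in place of 3 for cytokines against untreated and 7 in place of 1 for cytokines against cytokines with NMMA, and in δ-cells 4 and 3 in place of 0 for cytokines with NMMA against untreated and against cytokines alone. Total UMIs gave 4 in both β-cell comparisons of cytokines alone, and in α-cells 1 for cytokines against untreated, 1 for cytokines with NMMA and 2 between them. The fit without a low-count filter called 4 in β-cells (cytokines against untreated), 6 in α-cells (cytokines against cytokines with NMMA) and 1 in each δ-cell comparison of cytokines with NMMA. In α-cells DESeq2, clustering with all variable genes and removing doublets each gave 1 in place of 2 for cytokines with NMMA against untreated, and clustering with all variable genes gave 0 in place of 3 in δ-cells for cytokines. The cause was not tested.

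Without 1 library the count for cytokines with NMMA against untreated ranged from 1 to 2 in β-cells, 1 to 2 in α-cells and 0 to 1 in δ-cells, that for cytokines against untreated from 0 to 4 in α-cells and 0 to 3 in δ-cells, that for cytokines against cytokines with NMMA from 1 to 3 in β-cells and 0 to 4 in α-cells, and that for the α minus β difference from 1 to 5.

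Sign changes also occurred in comparisons that are not listed here. Examples are *Cpe* in δ-cells for cytokines against untreated (−0.20 to 0.25) and *Pam* in the α minus β difference (−0.50 to 0.27). In β-cell comparisons with cytokines, and in α-cells for cytokines against untreated, signs changed as follows. Leaving out a library moved β-cell log2 differences for cytokines against untreated from −0.05 to 0.42 (*Pcsk1n*, and −0.04 with total UMIs) and from −0.44 to 0.07 (*Chga*), for cytokines with NMMA against untreated from −0.06 to 0.09 (*Pcsk1*), −0.41 to 0.13 (*Pcsk1n*) and −0.08 to 0.49 (*Scg5*), and for cytokines against cytokines with NMMA from −0.15 to 0.13 (*Scg2*), and moved that of *Scg3* in α-cells for cytokines against untreated from −0.35 to 0.05. In α-cells for cytokines against untreated, total UMIs gave −0.13 for *Pcsk2*, −0.10 for *Chga* and −0.06 for *Scg2*. Leaving out the heat shock-led clusters, chosen after seeing the data, gave −5.80 for *Pcsk1*, −0.24 for *Pcsk1n*, −0.20 for *Pcsk2* and −0.54 for *Chga* from 15 cells of 1 cytokine library, and the first is a fitted value that depends on the prior count. Of these only *Pcsk1n* in α-cells was called.

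With 2 pools per condition a p-value without a block measures the spread between pools, and with a block the spread left after it. Small differences were not detectable. δ-cells with cytokines (8 and 11 cells) and *Pcsk1* in α-cells (7 to 34 UMIs per library) limit what their values show, and 3′ counts give RNA levels only, not enzyme activity or prohormone processing.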
